A study of Mus musculus with 18 samples.

Results

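Sox9, Sox4, Onecut1, Onecut2, Foxa2, Notch2, Jag1, Hes1 and Epcam make up a set of biliary fate factors and Notch pathway genes, chosen by gene name, 9 of the 54532 genes measured. They were followed in cells from the livers of mice whose bile duct had been tied off (bile duct ligation, BDL), which blocks the flow of bile, and of mice given a sham operation (Sham). Primary hepatocytes (MPH), biliary epithelial cells of the bile ducts (BECs) and Kupffer-like cells (Kupffer), which bear the name of the macrophages resident in liver, were sequenced. The groups were MPH BDL, MPH Sham, BECs BDL, BECs Sham, Kupffer BDL and Kupffer Sham, with 3 libraries each and 18 in all. The surgery was the only treatment that the labels name, while strain, age, genotype, sex and the time after surgery were not given in the sources used here. Each library of a group has a number of its own in its title, but the labels do not say what the number marks or that the libraries were separate mice, so the spread behind each p-value may be technical. Stellate cells were not analysed here.

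During liver development, hepatoblasts beside the portal vein turn into bile duct cells, while the others become hepatocytes. Jag1 is a membrane ligand that activates Notch receptors on a neighbouring cell, and Notch2 is the receptor most closely tied to bile duct formation. The cleaved receptor enters the nucleus, joins the DNA-binding protein Rbpj and switches on targets such as Hes1, a transcriptional repressor. Sox9 and Sox4 are SOX transcription factors of developing ducts, and Sox9 also marks adult duct cells. Onecut1 (HNF6) and Onecut2 are transcription factors of hepatoblasts, hepatocytes and developing ducts, and Foxa2 is a pioneer factor of endoderm. Epcam is an adhesion protein of the duct epithelium and is used to isolate duct cells.

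Levels are given in FPKM, sequenced fragments divided by transcript length and library size, and tests were made with limma on log2(FPKM + 1) with Benjamini-Hochberg adjustment over all genes tested. A gene was called at an adjusted p under 0.05, and was tested where it reached 1 FPKM in 3 or more libraries of the fit. The libraries held 15455405 to 20583320 reads in genes, as worked out from the FPKM values. The 12 biliary markers summed to 3215 to 3546 FPKM in BECs BDL and 3821 to 4442 in BECs Sham, against at most 148 in any other library. The 12 hepatocyte markers summed to at least 40617 FPKM in every MPH library and to at most 3718 elsewhere. The 12 Kupffer cell markers were not particular to the Kupffer libraries: they summed to 3084 to 18957 FPKM in Kupffer BDL and 8243 to 9713 in Kupffer Sham, and to 2241 to 6632 in MPH BDL and 2422 to 10044 in MPH Sham. The third Kupffer BDL library stood apart, with 3084 FPKM of Kupffer cell markers against 18957 and 13435 in the other libraries of its group, and 2291 FPKM of neutrophil markers against 884 and 826.

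In GRCm38 with GENCODE M21, Sox9 lies at chr11:112782224-112787760, Onecut1 at chr9:74861921-74891781, Notch2 at chr3:98013527-98150361, Hes1 at chr16:30064384-30067796 and Epcam at chr17:87635979-87651129, all on the plus strand. Sox4 lies at chr13:28948919-28953713, Foxa2 at chr2:148042877-148046969 and Jag1 at chr2:137081456-137116644, on the minus strand.

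The stretches upstream of 4 of these genes are shown because the set holds factors of the families whose motifs were looked for. Of the 9 genes, 6 had an entry in the RefSeq promoter table (GRCm38.p6), and Sox9, Hes1 and Onecut2 had none. In the 250 bases before each annotated start, both strands were searched for the RBPJ core TGGGAA, the Onecut motif ATTGAT, the FOXA motif TGTTTA, the SOX motif ACAATG and the HES N-box CACNAG. Of 32851 mouse promoters, 21.59% held the RBPJ core, 6.724% the Onecut motif, 12.03% the FOXA motif, 10.69% the SOX motif and 36.67% the N-box. With positions counted from the start, Sox4 held the RBPJ core at -100 and the N-box at -75. Foxa2 held the N-box at -226 and the Onecut motif at -213 before the first of its 3 annotated starts, and neither of the other starts had a match. Epcam held the FOXA motif at -141. Jag1 held the SOX motif on the opposite strand, at -164. Notch2 held the N-box alone and Onecut1 none of the motifs. Matches of this kind are a description of letters, not sites of binding. Each sequence below runs 5′ to 3′ along its gene, is cut where the annotated gene begins, and shows the matched letters in capitals.
Sox4, chr13:28953714-28953949, minus strand: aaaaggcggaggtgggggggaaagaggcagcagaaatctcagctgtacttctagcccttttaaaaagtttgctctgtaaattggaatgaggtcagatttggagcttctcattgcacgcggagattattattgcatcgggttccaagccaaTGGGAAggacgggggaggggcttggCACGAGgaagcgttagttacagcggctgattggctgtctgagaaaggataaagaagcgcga
Jag1, chr2:137116645-137116770, minus strand: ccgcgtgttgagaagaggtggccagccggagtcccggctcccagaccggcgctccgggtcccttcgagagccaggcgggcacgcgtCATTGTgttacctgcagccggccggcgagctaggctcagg
Foxa2, chr2:148046970-148047219, minus strand: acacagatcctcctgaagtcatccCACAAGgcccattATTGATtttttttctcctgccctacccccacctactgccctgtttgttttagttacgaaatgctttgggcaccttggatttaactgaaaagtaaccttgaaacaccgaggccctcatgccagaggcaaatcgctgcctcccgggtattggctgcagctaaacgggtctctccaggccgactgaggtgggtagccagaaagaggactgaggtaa
Epcam, chr17:87635729-87635978, plus strand: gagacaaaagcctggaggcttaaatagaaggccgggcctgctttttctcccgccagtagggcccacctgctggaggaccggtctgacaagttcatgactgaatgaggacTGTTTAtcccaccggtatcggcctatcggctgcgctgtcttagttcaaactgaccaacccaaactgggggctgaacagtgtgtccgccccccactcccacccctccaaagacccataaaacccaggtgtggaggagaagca

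In BDL livers, 5 of the 9 genes (Epcam, Sox9, Hes1, Jag1 and Sox4) were higher in BECs than in both MPH and Kupffer, beside 13.2% of all tested genes. In Sham livers, 6 of the 9 were, these 5 and Notch2, beside 16.0% of all tested genes. In bulk RNA such as this, fewer cells of a type and less RNA per cell cannot be told apart. Epcam had 233, 231 and 173 FPKM in BECs BDL and 196, 224 and 203 in BECs Sham. Epcam did not exceed 5.21 FPKM in MPH or 3.38 in Kupffer, so that no library of another cell type came near those of BECs. The difference of Epcam between BECs and MPH was 6.16 in BDL and 6.86 in Sham on the log2 scale, with adjusted p of 2.19e-05 and 8.29e-07. Sox9 had 84.8, 60.9 and 52.5 FPKM in BECs BDL, against 4.57, 8.64 and 7.41 in MPH BDL and 0.38, 0.47 and 1.60 in Kupffer BDL. In Sham livers Sox9 had 83.2, 91.8 and 73.9 FPKM in BECs, against 1.80, 1.15 and 4.23 in MPH and 0.56, 0.38 and 0.23 in Kupffer. The cell types did not overlap in Sham, and BECs stood 4.73 ± 0.29 above MPH and 5.92 ± 0.29 above Kupffer (log2 difference ± SE, adjusted p 2.62e-06 and 1.02e-06). Sox4, the other SOX factor, had 48.5, 44.0 and 20.6 FPKM in BECs BDL and 28.0, 25.9 and 21.6 in BECs Sham, and at most 2.72 in any MPH or Kupffer library.

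The Notch target Hes1 was the most abundant of the 9 genes in every group. Hes1 had 293, 380 and 304 FPKM in BECs BDL and 442, 448 and 609 in BECs Sham. The highest value of Hes1 outside BECs was 79.3 FPKM, in a Kupffer Sham library, and the ratio of BECs to MPH means was 13.0 in BDL and 18.0 in Sham. The ligand Jag1 had 29.9, 29.4 and 20.6 FPKM in BECs BDL and 30.5, 29.9 and 23.3 in BECs Sham, against 1.65 to 1.91 in MPH BDL and 0.72 to 1.85 in MPH Sham. Kupffer libraries held 1.29 to 2.85 FPKM of Jag1 in BDL and 1.38 to 4.50 in Sham, and all 6 lay below the lowest BECs library. The receptor Notch2 differed least between cell types among the genes high in BECs. In BDL livers Notch2 had 18.2, 16.3 and 14.8 FPKM in BECs, 11.3, 11.2 and 10.8 in MPH and 8.21, 12.8 and 21.8 in Kupffer. There the differences were 0.53 from MPH and 0.28 from Kupffer, with 95% intervals of -0.14 to 1.19 and -0.38 to 0.95, and neither passed the test (adjusted p 0.169 and 0.497). Without the third Kupffer BDL library, which held the 21.8 FPKM, both passed, at 0.53 against MPH, where the size did not change (adjusted p 0.0375), and at 0.62 against Kupffer (adjusted p 0.0401). In Sham livers Notch2 had 26.0, 20.2 and 16.2 FPKM in BECs, 4.92, 7.78 and 7.50 in MPH and 7.97, 7.44 and 9.26 in Kupffer, and BECs exceeded MPH 3.09-fold and Kupffer 2.53-fold in the means (adjusted p 0.00028 and 0.00134).

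**Figure D1:**
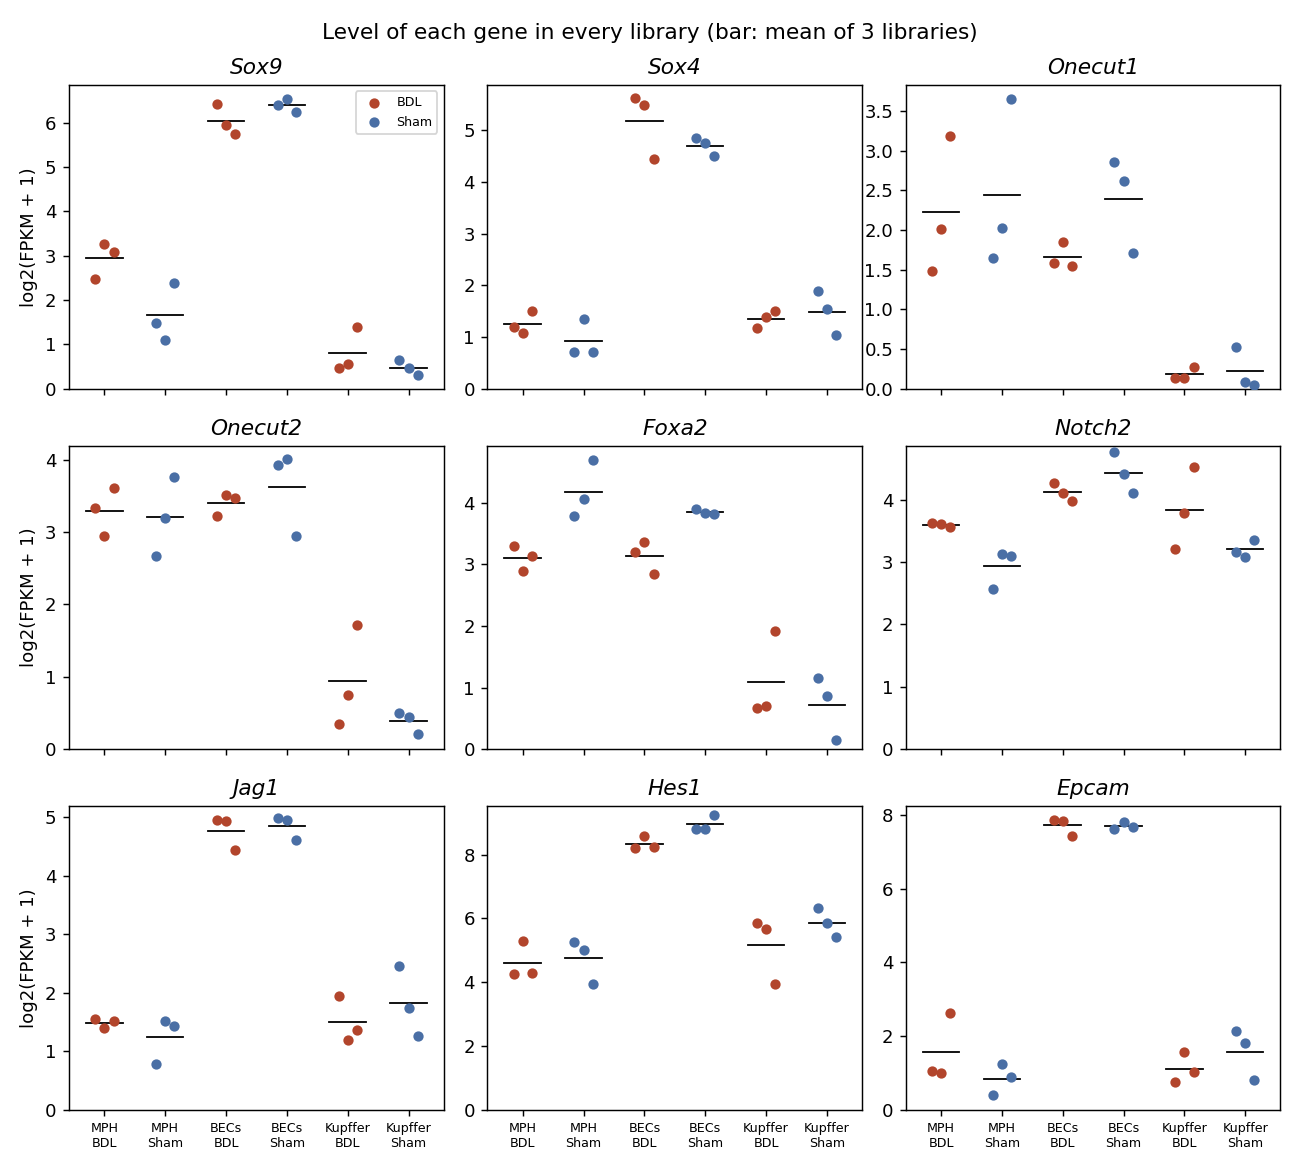
Level of each of the 9 genes as log2(FPKM + 1) in every library (points, BDL red and Sham blue) with the group mean (bar), for the 6 groups of 3 libraries on the horizontal axis. Sox9, Sox4, Jag1, Hes1 and Epcam were higher in every BECs library than in any other, though Hes1 was also well expressed in MPH and Kupffer. Onecut1, Onecut2 and Foxa2 overlapped between MPH and BECs on the deposited scale and were low in Kupffer.

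The transcription factors Onecut1, Onecut2 and Foxa2 had another order, with MPH and BECs both above Kupffer. In BDL livers 8 of the 9 genes, all but Notch2, were higher in BECs than in Kupffer, beside 17.2% of tested genes, and in Sham livers all 9 were, beside 23.9%. Higher in BECs than in MPH were 5 of 9 in BDL, beside 23.8% of tested genes, and 6 of 9 in Sham, beside 28.3%. Foxa2 had 8.18, 9.29 and 6.20 FPKM in BECs BDL and 8.81, 6.40 and 7.82 in MPH BDL. In Sham livers Foxa2 had 13.9, 13.3 and 13.1 FPKM in BECs and 12.8, 15.6 and 25.0 in MPH, and did not exceed 2.77 in Kupffer of either surgery. The groups of BECs and MPH overlapped, and the log2 difference was 0.03 in BDL (95% interval -0.73 to 0.79, adjusted p 0.95) and -0.33 in Sham (-0.99 to 0.33, adjusted p 0.36). Onecut2 had 8.30, 10.4 and 10.1 FPKM in BECs BDL and 9.04, 6.71 and 11.3 in MPH BDL. In Sham livers Onecut2 had 14.1, 15.1 and 6.71 FPKM in BECs and 5.34, 8.14 and 12.6 in MPH, and BECs and MPH again overlapped. The log2 differences of Onecut2 were 0.10 in BDL and 0.42 in Sham, with 95% intervals of -0.66 to 0.87 and -0.34 to 1.17. Onecut1 had 2.00, 2.60 and 1.92 FPKM in BECs BDL and 1.78, 3.04 and 8.09 in MPH BDL. In Sham livers Onecut1 had 6.24, 5.14 and 2.28 FPKM in BECs and 2.14, 3.06 and 11.5 in MPH. The groups overlapped, and the log2 difference between BECs and MPH was -0.57 in BDL (95% interval -1.42 to 0.29) and -0.04 in Sham (-1.16 to 1.08). In Kupffer, Onecut1 rested on 6 to 16 reads a library in BDL and 3 to 36 in Sham. Its difference from BECs in BDL, 1.48 ± 0.37 with an adjusted p of 0.0179, missed the threshold when any 1 of 4 libraries was left out (adjusted p 0.0512 to 0.0717).

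The levels shared by BECs and MPH were set beside the markers of the other cell type. Foxa2 in BECs stood at 103% of its MPH level in BDL and 75.4% in Sham, Onecut2 at 107% and 138%, and Onecut1 at 50.5% and 81.6%. The 12 hepatocyte markers in BECs had a median of 0.727% of their MPH level in BDL, with a range of 0.261% to 5.97%, and of 3.64% in Sham, with a range of 1.77% to 15.9%. On the deposited scale, the shares of the 3 factors were above the highest share of any hepatocyte marker. The part of hepatocyte transcripts in the levels of these factors in BECs was not tested. Within MPH, Onecut1 was highest in the third library of both surgeries, which also held the most hepatocyte marker transcripts of its group, 104447 FPKM in BDL and 110593 in Sham. The part of that difference in the spread of Onecut1 was not tested.

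Between MPH and Kupffer, 4 of the 9 genes differed in BDL, beside 28.4% of tested genes, and 5 of 9 in Sham, beside 56.8%. Foxa2, Onecut1, Onecut2 and Sox9 were higher in MPH in both, by 2.01, 2.04, 2.36 and 2.14 on the log2 scale in BDL and by 3.46, 2.22, 2.82 and 1.19 in Sham. Hes1 was lower in MPH than in Kupffer in Sham, with 37.6, 31.3 and 14.5 FPKM against 79.3, 57.2 and 41.3, a log2 difference of -1.12 ± 0.37 (adjusted p 0.0275). That call was lost when the third MPH Sham library or the first or second Kupffer Sham library was left out (adjusted p 0.0655, 0.0952 and 0.0680). It was also lost with no filter on level and in a fit of all 18 libraries (adjusted p 0.0859 and 0.0577). In BDL livers Hes1 had 18.0, 38.4 and 18.5 FPKM in MPH and 57.1, 49.8 and 14.2 in Kupffer, and the groups overlapped. Without the third Kupffer BDL library, which held the 14.2 FPKM, the log2 difference was -1.15 and passed the test (adjusted p 0.0351). Epcam in Sham differed by -0.73 (adjusted p 0.0864), and by -0.77 with an adjusted p of 0.0472 when the number in the titles, which some MPH and Kupffer libraries share, was kept as a block. Sox4, Jag1 and Notch2 did not pass in either surgery. Sox4 and Jag1 passed in Sham without the third Kupffer Sham library, at -0.81 and -0.86 (adjusted p 0.0273 and 0.0437), as did Epcam at -1.12 (0.0076), and Sox4 also without the second MPH Sham library, at -0.79 (0.0299).

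Comparisons with MPH depend on the scale of the deposited values. The library sizes implied by the FPKM were 0.516 to 0.741 of the recovered reads in MPH and 0.934 to 1.22 in the other cells. With libraries scaled to recovered reads, a choice added after the data were seen, the median over all genes of BECs minus MPH moved to 0.62 in BDL, against 0.02 on the deposited scale, and to 0.54 in Sham, against -0.01. The genes higher and lower in BECs than in MPH then numbered 7213 and 1321 in BDL, against 3378 and 3160 on the deposited scale. In Sham they numbered 7344 and 2162, against 4091 and 4340. Onecut2 in Sham and Notch2 in BDL then passed as higher in BECs than in MPH, at 1.09 and 1.23 (adjusted p 0.0092 and 0.0150), and with a common sum Onecut2 in BDL also passed, at 1.04 (adjusted p 0.0446). The difference of Foxa2 in Sham, -0.33 on the deposited scale, was 0.38 with recovered reads (adjusted p 0.251) and 0.75 with libraries scaled to a common sum, where it passed as higher in BECs (adjusted p 0.0411). With recovered reads, Epcam, Sox4, Jag1 and Notch2 in Sham passed as lower in MPH than in Kupffer, at -1.17, -1.01, -1.11 and -1.03, where the median over all genes was -0.65. The 6 genes higher in BECs than in both other cell types in Sham, and the 5 in BDL, were called on both scales.

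**Figure D2:**
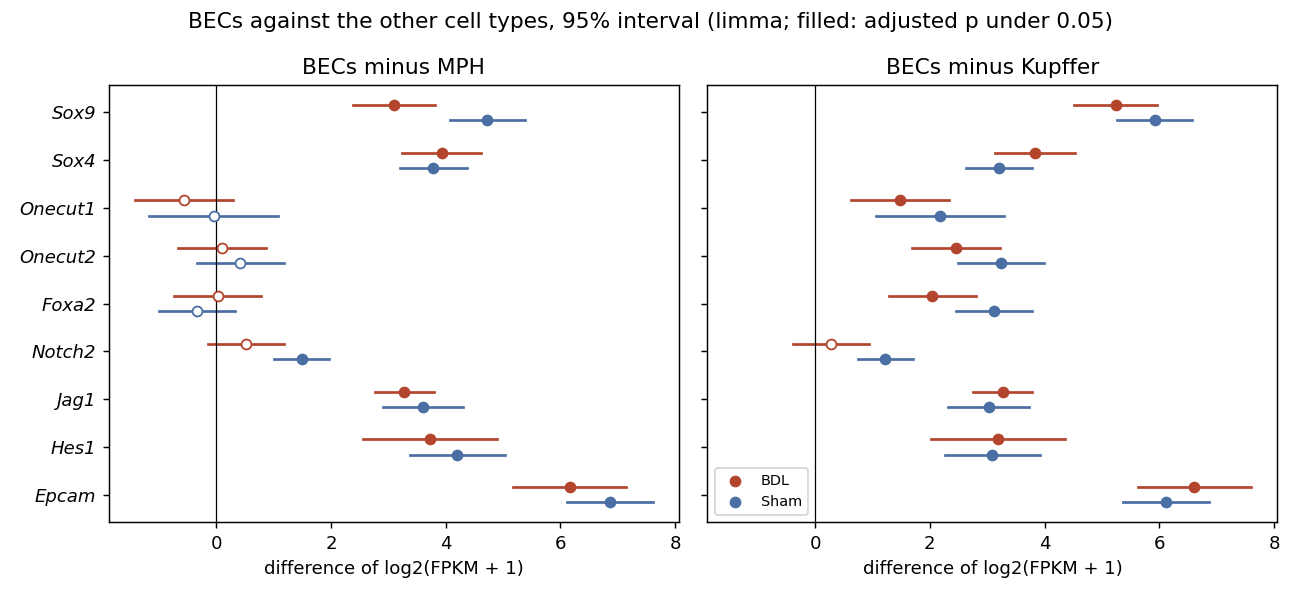
Differences of log2(FPKM + 1) between BECs and MPH (left) and between BECs and Kupffer (right) for each gene in BDL (red) and Sham (blue), with 95% intervals from limma; filled points passed an adjusted p of 0.05. On the deposited scale, Onecut1, Onecut2 and Foxa2 had intervals that held 0 against MPH and lay above 0 against Kupffer, and Notch2 had filled points in Sham alone.

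After ligation, Foxa2 in BECs was the only call among the 9 genes in any cell type, beside 7.66% of tested genes called in BECs in either direction, 2.96% as higher and 4.70% as lower. Foxa2 had 8.18, 9.29 and 6.20 FPKM in BECs BDL, against 13.9, 13.3 and 13.1 in BECs Sham, on 302 to 402 and 594 to 695 recovered reads. Every BDL library lay below every Sham library. Foxa2 averaged 7.89 ± 1.57 FPKM in BECs BDL and 13.4 ± 0.42 in BECs Sham (SD, n = 3 each), a log2 fold change of -0.71 ± 0.16 (SE, adjusted p 0.0413). The direction held without each library in turn, but each omission raised the adjusted p above the threshold, to between 0.0579 and 0.145. The call was also lost with no filter on level, with quantile normalization, with scaling to a common sum or to recovered reads and in a fit of all 18 libraries (adjusted p 0.0533 to 0.261), and kept with both other pseudocounts and median ratio scaling. Hepatocyte markers moved with it, summing to 175 to 675 FPKM in BECs BDL and 1522 to 3718 in BECs Sham. Of these 12 markers 1 was called lower and none was higher in the mean. The 11 endothelial markers also moved with Foxa2, at 88.6 to 145 and 222 to 302 FPKM, and 9 were called lower. The sum of the biliary markers, given above, was also lower in every BECs BDL library than in any BECs Sham library. Taken singly, 5 of these 12 markers were higher in the mean, 1 was called higher and none was called lower. Markers of neutrophils moved opposite to Foxa2, at 298 to 455 FPKM in BECs BDL and 32.4 to 110 in BECs Sham. So did those of monocytes, at 55.4 to 212 and 9.50 to 20.5 FPKM. The part of these cells in the fall of Foxa2 was not tested.

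The other 8 genes did not pass in BECs. Hes1 had 293, 380 and 304 FPKM in BECs BDL, against 442, 448 and 609 in BECs Sham, and the groups did not overlap. Its log2 fold change was -0.61 (95% interval -1.09 to -0.13, adjusted p 0.116). Hes1 and Foxa2 were the 2 of 9 genes whose groups did not overlap in BECs, beside 31.8% of tested genes. Sox4 had 48.5, 44.0 and 20.6 FPKM in BECs BDL, against 28.0, 25.9 and 21.6 in BECs Sham, so that the third BDL library lay below all Sham libraries and the others above them. Its log2 fold change was 0.48 ± 0.32 (adjusted p 0.391), and without that library it was 0.86 and passed (adjusted p 0.037). Onecut1 had 2.00, 2.60 and 1.92 FPKM in BECs BDL, against 6.24, 5.14 and 2.28 in BECs Sham, a log2 fold change of -0.74 ± 0.30 (adjusted p 0.175). Without the third BECs Sham library it was -1.08 and passed (adjusted p 0.0382). The duct genes Sox9, Epcam and Jag1 had log2 fold changes of -0.35, 0.02 and -0.07, with 95% intervals of -0.84 to 0.15, -0.40 to 0.44 and -0.53 to 0.38. Notch2 and Onecut2 had log2 fold changes of -0.30 and -0.23 (95% intervals -0.75 to 0.14 and -0.91 to 0.46).

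In MPH, none of the 9 genes passed limma's test after ligation, beside 1.57% of tested genes in either direction. An unadjusted p under 0.05 was reached by 3 of the 9, beside 2791 of 12323 tested genes. Sox9, Notch2 and Foxa2 were the 3 of 9 genes whose groups did not overlap, beside 30.2% of tested genes. Sox9 had 4.57, 8.64 and 7.41 FPKM in MPH BDL, against 1.80, 1.15 and 4.23 in MPH Sham. Every BDL library lay above every Sham library, though the lowest BDL and the highest Sham values were close. The means were 6.87 ± 2.09 FPKM in MPH BDL and 2.39 ± 1.62 in MPH Sham, a log2 fold change of 1.28 with a 95% interval of 0.39 to 2.17 (adjusted p 0.121). In a fit of all 18 libraries Sox9 passed (adjusted p 0.0184). Foxa2 had 8.81, 6.40 and 7.82 FPKM in MPH BDL, against 12.8, 15.6 and 25.0 in MPH Sham, a log2 fold change of -1.07 with a 95% interval of -1.72 to -0.43 (adjusted p 0.0904, or 0.0455 in the fit of all 18 libraries). Notch2 had 11.3, 11.2 and 10.8 FPKM in MPH BDL, against 4.92, 7.78 and 7.50 in MPH Sham, a log2 fold change of 0.66 (95% interval 0.18 to 1.15, adjusted p 0.132). Epcam had 1.09, 0.99 and 5.21 FPKM in MPH BDL and 0.33, 1.36 and 0.85 in MPH Sham, and the third BDL library alone lay above all of them. Hepatocyte markers overlapped between the groups, at 49501 to 104447 FPKM in MPH BDL and 40617 to 110593 in MPH Sham. Monocyte markers did not, at 71.2 to 162 FPKM in MPH BDL and 9.72 to 17.6 in MPH Sham, and 2 of the 4 tested rose. Stellate cell markers summed to 193 to 357 FPKM in MPH BDL and 86.4 to 226 in MPH Sham, with 9 of 9 higher in the mean and none called, and the T and NK cell markers to 1.00 to 2.43 and 3.40 to 11.1. The part of these cells in the values of Sox9, Notch2 and Foxa2 was not tested. The log2 fold changes of Hes1, Jag1, Sox4, Onecut1 and Onecut2 were -0.14, 0.25, 0.34, -0.22 and 0.09, each with a 95% interval that held 0.

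The biliary markers in MPH moved with Sox9. They summed to 63.5 to 84.0 FPKM in MPH BDL and 20.2 to 43.8 in MPH Sham, and of the 4 that could be tested all 4 were higher in the mean and 1 passed, the duct keratin Krt7, at 1.13 (adjusted p 0.0481). At most 2 of the 12 were at 0 in an MPH library. Sox9 in MPH stood at 10.4% of its BECs level in BDL and 2.88% in Sham. The biliary markers had a median of 1.43% in BDL, with a range of 0.160% to 5.71%, and of 0.615% in Sham, with a range of 0.0322% to 5.19%. In BDL livers Sox9 was therefore above the highest share of the 12 markers, and in Sham livers within their range. This was not particular to Sox9, as Hes1, Jag1 and Notch2 in BDL were also above it, at 7.66%, 6.80% and 67.4%. In Sham livers Hes1 and Notch2 were above the range, at 5.57% and 32.4%, and Jag1 was within it, at 5.09%. Sox4 was within the range in both, at 3.74% in BDL and 3.70% in Sham. Epcam stood at 1.14% in BDL and 0.408% in Sham, within the range of the markers in both. The part of duct transcripts in the level of Sox9 in MPH was not tested.

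In Kupffer, 5 of the 9 genes could be tested with limma and none passed, beside 3.88% of tested genes in either direction, 1.47% as higher and 2.40% as lower. None of the 5 had an unadjusted p under 0.05, beside 3070 of 12748 tested genes. No gene of the 5 had groups that did not overlap, beside 32.3% of tested genes. Hes1 had 57.1, 49.8 and 14.2 FPKM in Kupffer BDL, against 79.3, 57.2 and 41.3 in Kupffer Sham, a log2 fold change of -0.71 ± 0.55 (adjusted p 0.471). Notch2 had 8.21, 12.8 and 21.8 FPKM in Kupffer BDL, against 7.97, 7.44 and 9.26 in Kupffer Sham, a log2 fold change of 0.64 ± 0.33 (adjusted p 0.294). The log2 fold changes of Epcam, Jag1 and Sox4 were -0.47, -0.32 and -0.14. Sox9, Onecut1, Onecut2 and Foxa2 fell under the filter on level, at mean levels of at most 1.33 FPKM in Kupffer BDL and 0.72 in Kupffer Sham. In the third Kupffer BDL library, which had the fewest Kupffer cell markers, Sox9, Onecut2, Foxa2 and Notch2 were at their highest level of the 6 Kupffer libraries and Hes1 at its lowest.

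**Figure D3:**
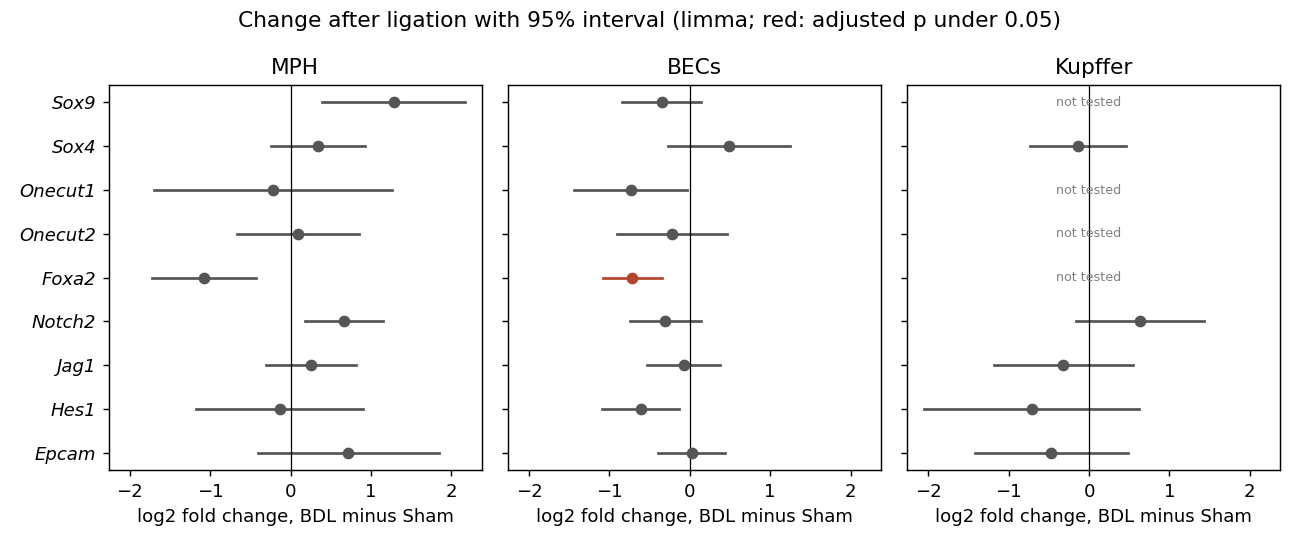
Log2 fold change of each gene, BDL minus Sham, with its 95% interval from limma, in MPH, BECs and Kupffer; red marks an adjusted p under 0.05 and 4 genes were below the filter on level in Kupffer. Foxa2 in BECs, at -0.71, was the single call, while the intervals of Sox9, Notch2 and Foxa2 in MPH and of Hes1 and Onecut1 in BECs also lay to 1 side of 0 but did not pass after adjustment.

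The change after ligation was also compared between cell types as an interaction. None of the 9 genes passed in BECs minus MPH, BECs minus Kupffer or MPH minus Kupffer, beside 1.60%, 3.50% and 0.404% of tested genes. An unadjusted p under 0.05 in limma was reached by 2, 2 and 1 of the 9. Of all tested genes, 2632 of 14780, 3189 of 14874 and 2683 of 14101 reached it. Sox9 had the smallest adjusted p, at 0.0986, with a response 1.63 lower in BECs than in MPH on the log2 scale (95% interval -2.63 to -0.62). Without the third MPH Sham library, the one with 4.23 FPKM, the difference was -1.99 and passed (adjusted p 0.0368). Notch2 had a response of -0.30 in BECs and 0.66 in MPH, a difference of -0.97 (adjusted p 0.107). Foxa2 had a response of -0.71 in BECs and -1.07 in MPH, and the difference of 0.36 had a 95% interval of -0.35 to 1.07. For Foxa2 the responses of MPH and Kupffer differed by -1.44 (adjusted p 0.185), on Kupffer levels near 1 FPKM.

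The wider Notch pathway was described with lists of 5 ligands, 4 receptors, 26 processing genes and modulators, 9 genes of the nuclear complex and 6 targets. In MPH no gene of these lists passed after ligation, among 3 ligands, 3 receptors, 22 processing genes, 9 nuclear genes and 2 targets tested. Only 1.57% of all tested genes were called in MPH, so the absence of calls is not particular to the Notch lists. The smallest p were those of the ligand Dll4 (-1.03, adjusted p 0.218), the receptor Notch2, the ligase Mib2 (-0.58, 0.122), the corepressor Spen (0.43, 0.199) and the target Hey1 (-0.17, 0.850). In BECs, 1 of 4 ligands fell, Dll1, with 4.68 ± 0.76 FPKM in BECs BDL and 10.2 ± 3.23 in BECs Sham, at -0.95 (adjusted p 0.0462), beside 4.70% of tested genes called lower. The endothelial markers in BECs lay the same way, with 9 of 11 called lower and a median of -1.18, and their part in the fall of Dll1 was not tested. The median of the 4 ligands was -0.30, and that of all genes -0.03. None of the 4 receptors passed in BECs, and the smallest p was that of Notch3, with 7.01 ± 2.95 FPKM in BECs BDL and 15.0 ± 2.84 in BECs Sham (adjusted p 0.0900). Of 26 processing genes in BECs, 1 rose, Neurl1a, an E3 ubiquitin ligase of the Neuralized family, with 4.76 ± 2.20 FPKM in BECs BDL and 0.76 ± 0.08 in BECs Sham (log2 fold change 1.62, adjusted p 0.0304). This single call is near the 2.96% of tested genes called higher in BECs. None of the 9 nuclear genes and none of the 4 targets passed in BECs, with medians of -0.13 and -0.31. Among these, the acetyltransferase gene Kat2b had the smallest p of the nuclear genes, at -0.68 (adjusted p 0.114), and Hes1 that of the targets. Dll1 lost its call without any 1 of the 6 BECs libraries (adjusted p 0.074 to 0.137), and Neurl1a without each of the 3 Sham libraries (up to 0.109).

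In Kupffer, 4 genes of the Notch lists fell and none rose, beside 2.40% of tested genes called lower and 1.47% called higher. The ligand Dll4 had 10.5 ± 6.03 FPKM in Kupffer BDL and 46.6 ± 9.21 in Kupffer Sham, at -2.17 (adjusted p 0.0465), 1 of 3 ligands. The receptor Notch1 had 7.98 ± 0.58 FPKM in Kupffer BDL and 13.3 ± 1.28 in Kupffer Sham, at -0.67 (adjusted p 0.0479), 1 of 3 receptors. Mib2, an E3 ubiquitin ligase that acts on Notch ligands, had 6.83 ± 0.30 FPKM in Kupffer BDL and 12.2 ± 1.30 in Kupffer Sham, at -0.75 (adjusted p 0.0412), 1 of 25 processing genes. Nrarp, a target and feedback inhibitor of Notch, had 0.92 ± 0.30 FPKM in Kupffer BDL and 4.35 ± 0.52 in Kupffer Sham, at -1.49 (adjusted p 0.0236), 1 of 3 targets. None of the 9 nuclear genes passed in Kupffer, where the smallest p was that of Kat2b (0.25, adjusted p 0.323). The 11 endothelial markers moved with these, at 435 to 1199 FPKM in Kupffer BDL and 1523 to 1872 in Kupffer Sham, and 4 of the 11 fell. The 5 B cell markers summed to 22.4 to 110 FPKM in Kupffer BDL and 168 to 209 in Kupffer Sham, where 1 of 5 fell, and the 7 T and NK cell markers to 34.3 to 115 and 131 to 182, where none of 7 passed. Neutrophil markers lay the other way, at 826 to 2291 FPKM in Kupffer BDL and 290 to 300 in Kupffer Sham, and 3 of 6 tested rose. Dll4 is known from endothelial cells, and the part of any of these cells in the 4 calls was not tested. Each of the 4 calls was lost without any 1 of the 3 Kupffer Sham libraries or the second BDL library (adjusted p up to 0.213). These omissions left 0 calls among all genes tested in Kupffer, so that loss was not particular to the 4 genes. Notch1 and Mib2 also lost their calls without the first BDL library.

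**Figure D4:**
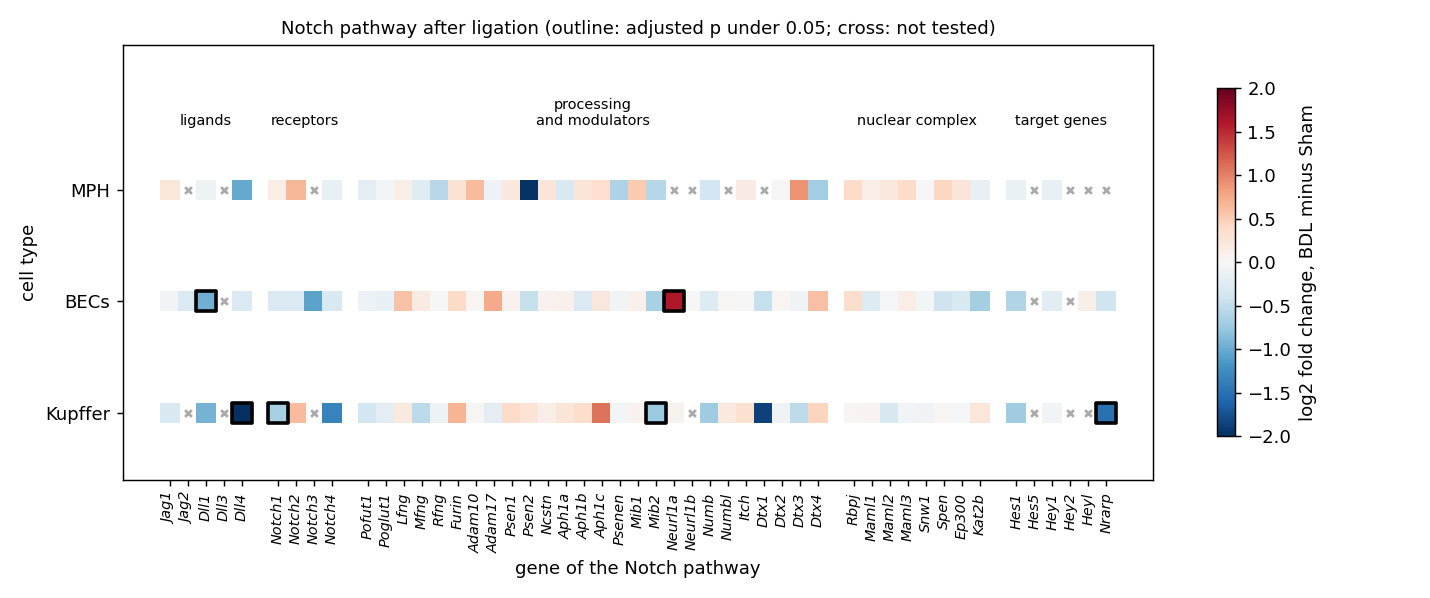
Log2 fold change, BDL minus Sham, of genes of the 5 Notch lists (horizontal axis) in MPH, BECs and Kupffer (rows); colour runs from blue, lower in BDL, to red, higher in BDL, and is capped at 2 in either direction, outlined squares passed an adjusted p of 0.05 and crosses were not tested. The outlines are Dll1 and Neurl1a in BECs and Dll4, Notch1, Mib2 and Nrarp in Kupffer.

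Several Notch ligands, receptors and targets besides Jag1, Notch2 and Hes1 were higher in BECs than in both other cell types, beside 13.2% of tested genes in BDL and 16.0% in Sham. In BDL livers 3 of 4 tested ligands (Jag1, Jag2 and Dll1), 1 of 4 receptors (Notch3) and 3 of 4 tested targets (Hes1, Heyl and Nrarp) were. In Sham livers these were the same 3 ligands, 2 of 4 receptors (Notch2 and Notch3) and 3 of 4 targets (Hes1, Hey1 and Heyl). Of the 9 nuclear genes, 1 was higher in BECs in BDL (Rbpj) and 3 in Sham, Rbpj and Maml1 among them, and of the 26 processing genes 4 were in BDL and 3 in Sham. The counts of processing genes in both surgeries, and that of nuclear genes in BDL, were near the share of all tested genes. Jag2, the other Jagged ligand, had 4.62 ± 2.12 FPKM in BECs BDL and 5.59 ± 1.19 in BECs Sham, and at most 0.89 in any other library. Heyl, a repressor of the Hes and Hey family, had 7.45 ± 5.30 FPKM in BECs BDL and 5.86 ± 1.43 in BECs Sham. Some stellate cell markers were also higher in BECs than in both other cell types, 5 of 9 in BDL and 6 of 9 in Sham. These were Col1a1, Col1a2, Col3a1, Pdgfrb and Des, with Dcn in Sham. The 9 markers summed to 817 to 1452 FPKM in BECs BDL and 494 to 863 in BECs Sham. Against MPH, 2 of the 9 were called lower in BECs in BDL and none in Sham. Lrat and Colec11 had 1.02 and 12.05 FPKM in BECs BDL, against 8.79 and 43.92 in MPH BDL. The part of stellate cells in the levels of the Notch genes was not tested.

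Among 20 transcription factors of duct cells and hepatocytes, a list that holds Sox9, Sox4, Onecut1, Onecut2 and Foxa2, 6 of the 18 tested in BECs fell after ligation and none rose, beside 4.70% of tested genes called lower and 2.96% called higher. Their median log2 fold change was -0.72, where that of all genes was -0.03. Hhex, a homeobox factor of the developing liver and ducts, had 33.3 ± 1.81 FPKM in BECs BDL and 82.2 ± 14.5 in BECs Sham (-1.27, adjusted p 0.0130). Prox1, a factor of hepatoblasts and hepatocytes, had 5.82 ± 0.93 FPKM in BECs BDL and 21.3 ± 8.02 in BECs Sham (-1.65, adjusted p 0.0212). Gata4, an endodermal factor also known from liver endothelium, had 6.26 ± 1.00 FPKM in BECs BDL and 13.3 ± 2.67 in BECs Sham (-0.97, adjusted p 0.0265). Also among the 6 were Foxa2 and its paralog Foxa1, which had 13.5 ± 1.99 FPKM in BECs BDL and 28.0 ± 4.94 in BECs Sham and was named after its values were seen. The hepatocyte and endothelial markers in BECs, given with Foxa2, moved with these too, and their part in these falls was not tested. Hhex lost its call without 1 of the 6 BECs libraries, Prox1 without 3 and Gata4 without 4. In MPH none of 18 passed, beside 1.57% of tested genes called in either direction. The smallest p in MPH was that of the epithelial factor Elf3, with 2.71 ± 1.85 FPKM in MPH BDL and 0.31 ± 0.07 in MPH Sham (1.40, adjusted p 0.0835). The biliary markers in MPH, given with Sox9, lay the same way, and their part in the values of Elf3 was not tested. In Kupffer 1 of 8 rose, Gata6, with 3.61 ± 0.34 FPKM in Kupffer BDL and 1.41 ± 0.13 in Kupffer Sham (0.94, adjusted p 0.0306), beside 1.47% of tested genes called higher. That call was lost without any 1 of 4 libraries, omissions that left 0 calls among all genes tested in Kupffer. Hepatocyte markers lay the same way in Kupffer, at 1222 to 3595 FPKM in BDL and 471 to 1038 in Sham, with 12 of 12 higher in the mean and none called. The summed stellate cell markers did too, at 155 to 256 FPKM in Kupffer BDL and 53.0 to 119 in Kupffer Sham, though 4 of 9 were higher, and the part of these cells in the rise of Gata6 was not tested.

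Epcam was set beside 7 other epithelial adhesion genes. None of the 8 passed after ligation in BECs, none of 5 tested in MPH and none of 5 in Kupffer. Of all tested genes, 7.66% were called in BECs, 1.57% in MPH and 3.88% in Kupffer, so so few genes cannot show that the adhesion genes were stable. In MPH the smallest p was that of the tetraspanin Tspan8, with 2.28 ± 0.93 FPKM in MPH BDL and 0.54 ± 0.46 in MPH Sham (1.10, adjusted p 0.0983), and in Kupffer that of E-cadherin, Cdh1 (-0.46, adjusted p 0.446). Higher in BECs than in both other cell types were 7 of 8 in BDL, beside 13.2% of tested genes, and all 8 in Sham, beside 16.0%.

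The genes most like each of the 9 were found by the root mean square difference of centred log2(FPKM + 1) over the 18 libraries among 13423 genes. This is a description of likeness over 6 groups that share cell types. Epcam was nearest to the tight junction gene Cldn7 (0.37), then Tspan8 (0.39) and the mucin gene Muc1 (0.56). Among the genes nearest to Onecut2 were the hepatocyte growth factor receptor gene Met (0.30) and Clmn (0.36). Foxa2 was nearest to Fdft1 (0.34), which encodes squalene synthase, then Ngef and Igsf5 (0.40 each), and Onecut1 to Cyp4f17 (0.39), Fam234b (0.42) and the squalene epoxidase gene Sqle (0.44). Jag1 was nearest to Olfml2a (0.31), Egflam and Flrt3 (0.32 each), and Sox4 to Fermt1 (0.35), Bspry (0.35) and Cdh6 (0.36). Notch2 was nearest to Usp22 (0.29), Pspc1 and Arhgap28 (0.30 each). Hes1 and Sox9 had no gene closer than 0.50 (Pdgfd, then Bcam and Mal) and 0.64 (Dusp8, then Tuft1 and Pard6b). Among the 9 genes themselves, Jag1 and Sox4 were closest (0.37), followed by Foxa2 and Onecut2 (0.49), Onecut1 and Onecut2 (0.62) and Hes1 and Jag1 (0.64).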

How the data were processed

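Per the labels' protocols, RNA was extracted with TRIzol and VAHTS Universal V6 libraries were made from it, and the labels give the molecule as polyadenylated RNA. Per the submitters' processing notes, the tools were CASAVA 1.8, fastp, HISAT2 2.0.5, featureCounts 1.5.0-p3 and DESeq2 1.20.0, with GRCm38 (mm10). Annotation release, strandedness and fastp version were not given in the sources used here, so reads of overlapping or antisense genes may not be told apart. The deposited table holds the authors' FPKM values for 54532 genes in 18 libraries. Reads were recovered from FPKM times exon length of GENCODE M21 for 53710 genes. Of values below 200 reads, 97.4% to 98.4% were whole within 0.02, depending on the library. Epcam and Onecut2 did not come out whole at this length, and no reads are given for them. The implied library sizes do not follow the read totals, so MPH levels rest on the authors' scaling.

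Groups came from the cell type and treatment labels. Linear models of log2(FPKM + 1) were fitted with limma 3.58.1 (R 4.3.3, eBayes with trend and robust, 2-sided tests) for genes that reached FPKM 1 in 3 or more libraries of the fit. Each cell type's 6 libraries gave BDL minus Sham, each surgery's 9 libraries the cell type differences, and 12 libraries the interaction of responses. Folds on this scale understate changes of low genes. The fit was also run on simulated reads, a simpler setting than these libraries, and the outcome is not reported here.

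Named were the 9 genes whatever their result, up to 4 called genes per list and cell type with the smallest p or, where none was called, the gene with the smallest p, and the 3 nearest patterns per gene. Some genes that this rule names are not reported here, and 1 gene of the Notch lists is not drawn. The genes, lists and rules were chosen with earlier results of these data known. The numbers 2136, 2140 and 1957 stand in the titles of both an MPH and a Kupffer library. Over 15594 genes the deviations of these pairs from their group means had correlations of 0.213, 0.324 and 0.299. Libraries with unlike numbers were not compared, so these values cannot show that the number pairs libraries. The number was tried as a block (duplicateCorrelation, statmod 1.5.0). Leaving out each library, all 18 libraries in 1 model, quantile normalization, median ratio scaling, a common sum per library, plain eBayes, a filter at FPKM 5 or none, and pseudocounts of 0.1 and 0.01 were the alternatives. Scaling to recovered reads was added after the data were seen. Promoter sequences are RefSeq's (GRCm38.p6).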

Additional observations from a re-analysis of the deposited data

Results flagged for a closer look

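Of the list genes named, 3 had a response to ligation that differed between cell types by the interaction test (limma, Benjamini-Hochberg adjusted over all genes). Of all tested genes, 1.60% were called in BECs minus MPH, 3.50% in BECs minus Kupffer and 0.404% in MPH minus Kupffer. The list genes were named by their p after ligation in the same libraries, so the interaction is not a separate test of them. The response of Prox1 was lower in BECs than in MPH (a log2 difference of -2.12 ± 0.35 SE, adjusted p 0.0189). The response of Prox1 was also lower in BECs than in Kupffer (-2.30 ± 0.51, adjusted p 0.0404), where its mean was 1.82 FPKM in BDL and 0.64 in Sham. The response of the 12 hepatocyte markers lay the same way, with a median of -4.01 and 8 of 12 called lower in BECs than in Kupffer, and a median of -2.18 with none called in BECs minus MPH, and their part in the values of Prox1 was not tested. The response of Gata6 was lower in BECs than in Kupffer (-1.37 ± 0.20, adjusted p 0.0155), with 21.4 FPKM in BECs BDL and 29.0 in BECs Sham against 3.61 in Kupffer BDL and 1.41 in Kupffer Sham. The response of Elf3 was lower in BECs than in MPH (-2.16 ± 0.44, adjusted p 0.0394), with 53.3 FPKM in BECs BDL and 91.2 in BECs Sham against 2.71 in MPH BDL and 0.31 in MPH Sham. The biliary markers in MPH summed to 63.5 to 84.0 FPKM in BDL and 20.2 to 43.8 in Sham. Their response in BECs minus MPH had a median of -0.53 with none called, and their part in the values of Elf3 was not tested. Without single libraries, Prox1 lost its call against Kupffer in 9 of 12 omissions (adjusted p up to 0.108) and against MPH in 3 (up to 0.057), Gata6 against Kupffer in 2 (up to 0.0516) and Elf3 against MPH in 9 (up to 0.109). None of the 9 genes met this test, and no outlier test applies to groups of 3.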

How the results depend on the processing

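Over 104 results of the 9 genes, 1019 of 1058 values under other settings kept their direction and their side of the threshold, 7 lost the call, 16 gained it and 16 uncalled values changed sign, of which Foxa2 between BECs and MPH in Sham then passed. Leaving out a library gave 885 of 945 kept, 13 lost, 10 gained and 37 uncalled sign changes, and no called value changed sign in either. The counts over all genes moved more, and the cause was not tested. With no filter the calls after ligation numbered 18 in MPH, 81 in BECs and 0 in Kupffer (3254 at an unadjusted p under 0.05), against 194, 1040 and 494. Pseudocounts of 0.1 and 0.01 gave 117 and 59 in MPH and 323 and 286 in Kupffer. Scaling to a common sum gave 109 in MPH and 749 in Kupffer, recovered reads 102 in MPH, and all 18 libraries 1926 in MPH and 1117 in Kupffer. Scaling moved the split of genes higher and lower after ligation, which was 88 and 106 in MPH (70 and 39 with a common sum), 402 and 638 in BECs (498 and 449) and 188 and 306 in Kupffer (115 and 634). It also moved that of MPH minus Kupffer, 2363 and 1678 in BDL (905 and 5705) and 4145 and 4066 in Sham (1790 and 9911), of BECs minus Kupffer in BDL, 2449 and 1995 (3413 and 1180), and of the response in BECs minus Kupffer, 200 and 320 (433 and 171). Between MPH and Kupffer in Sham, Gata6, higher in MPH, was at -0.0604 with a common sum, and Kat2b between BECs and MPH in BDL, lower in BECs, at 0.13. For cell types, FPKM of at least 5 gave 1022 genes higher in BECs than in both others in BDL (against 1872), 1331 in Sham (against 2318) and 4161 for BECs minus Kupffer in Sham (against 6350), and a common sum gave 3140 higher in BECs in BDL. MPH minus Kupffer in BDL (4041) had 2545 with no filter, 6610 with a common sum and 6124 with recovered reads. Response differences of BECs minus MPH (237) numbered 112 and 102 with the pseudocounts, 86 with no filter, 122 with FPKM of at least 5 and 388 with all 18 libraries. Those of BECs minus Kupffer (520) numbered 318, 287 and, with no filter, 13. Those of MPH minus Kupffer (57) numbered 11 and 12 with the pseudocounts, 24 with no filter, 14 with a common sum, 20 with quantile normalization, 89 without trend, 654 with all 18 libraries and 12 with recovered reads. With the title number as a block they numbered 469. The block changed no other call among the 9 genes than Epcam between MPH and Kupffer, and in BDL it could not be fitted, with 1 pair. Leaving out single libraries gave 8 to 77 calls after ligation in MPH, 86 to 1033 in BECs and 0 to 2272 in Kupffer, where the highest was without the third BDL library and the 4 omissions that gave 0 had 1752 to 2319 genes at an unadjusted p under 0.05. It gave 854 to 2090 genes higher in BECs in BDL and 1203 to 2502 in Sham. The ranges for BECs minus Kupffer, BECs minus MPH and MPH minus Kupffer were 2333 to 5086, 4345 to 7054 and 2610 to 4368 in BDL, and 4349 to 7085, 6349 to 8196 and 6507 to 8251 in Sham. For response differences in that order they were 38 to 1773, 51 to 338 and 2 to 382. Depth limits Onecut1 in Kupffer most, at 3 to 36 reads a library.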
